A study of Mus musculus with 3 samples.

Results

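The genes described here are 7 regulators of G protein signalling, Rgs1, Rgs2, Rgs3, Rgs10, Rgs14, Rgs16 and Rgs19, and the measurement is the histone mark H3K36me3 over their bodies in mouse regulatory T (Treg) cells. Their peaks were those whose midpoint lay inside the gene body in the GENCODE mouse annotation, release 21. All 7 genes had at least 1 peak and all 7 reached the signal minimum of 20 RPKM over both libraries, out of 11946 genes with a peak and 10886 that reached the minimum. Together they held 74 of the 120910 peaks of the series. RPKM is read coverage per kilobase scaled to sequencing depth, and each deposited value is the mean coverage of a peak.

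The Treg cells were sorted as CD3+CD4+Foxp3-YFP+ cells from steady-state adult Foxp3-YFP mice on the C57BL/6 strain, also written Foxp3Cre-YFP, in which the Foxp3 locus drives a yellow fluorescent protein joined to Cre. Both tissues share this reporter allele, and the labels name no other engineered allele. A single chromatin immunoprecipitation (ChIP-seq) library was made from splenic cells and 1 from cells of the large intestine, each from cells pooled from 7 males and 7 females, and an input library of splenic Treg chromatin was not analysed here. Every difference below is therefore between 2 libraries, has no replicate check, and carries no test.

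RGS proteins speed up the hydrolysis of GTP by G alpha subunits and so shorten the signal of G-protein-coupled receptors, among them the chemokine receptors that steer lymphocytes between lymphoid tissue and gut. The genes fall into subfamilies by the sequence of the RGS domain: Rgs1, Rgs2, Rgs3 and Rgs16 belong to R4, Rgs10 and Rgs14 to R12, and Rgs19 to RZ. H3K36me3 is written by Setd2 over the bodies of transcribed genes, behind the elongating polymerase.

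The part of the genes that makes them a family is the RGS domain. The sequences are shown because they locate a part of the domain within the marked stretches. For 6 of the genes they give the coding exon most like the Rgs16 exon that overlaps the short Rgs16 peak. Each was read from the RefSeq copy of the GRCm38 (mm10) genome in coding direction. Below it is called the RGS domain exon, although it holds only part of the domain. Capitals mark bases identical to those of Rgs16 at the aligned position, so that the Rgs16 exon is in capitals throughout. Identity to Rgs16, as a share of each gene's own exon, ran from 44.3% of the bases in Rgs19 to 69.5% in Rgs3. It was 65.5% in Rgs10 and 67.7% in both Rgs2 and Rgs14. The Rgs19 exon has 235 bases and the Rgs16 exon 167, so part of the Rgs19 exon has no Rgs16 base to match. The shares are thus not on a common length.
Rgs2: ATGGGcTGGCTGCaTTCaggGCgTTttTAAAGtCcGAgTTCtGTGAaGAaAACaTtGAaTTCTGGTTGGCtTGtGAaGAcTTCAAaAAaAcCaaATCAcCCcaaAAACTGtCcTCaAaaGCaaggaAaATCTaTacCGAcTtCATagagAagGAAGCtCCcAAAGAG
Rgs3: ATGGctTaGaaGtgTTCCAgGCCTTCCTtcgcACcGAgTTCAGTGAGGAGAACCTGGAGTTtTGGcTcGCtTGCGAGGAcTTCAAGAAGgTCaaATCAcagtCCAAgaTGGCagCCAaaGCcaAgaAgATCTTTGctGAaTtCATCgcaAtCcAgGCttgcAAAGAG
Rgs16: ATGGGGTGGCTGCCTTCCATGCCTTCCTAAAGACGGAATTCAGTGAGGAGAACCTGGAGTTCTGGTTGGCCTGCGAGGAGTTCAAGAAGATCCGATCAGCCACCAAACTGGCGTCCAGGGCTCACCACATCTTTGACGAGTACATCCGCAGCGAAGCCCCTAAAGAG
Rgs10: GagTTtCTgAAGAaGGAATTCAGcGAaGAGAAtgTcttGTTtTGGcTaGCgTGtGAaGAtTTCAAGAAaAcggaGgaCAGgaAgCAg
Rgs14: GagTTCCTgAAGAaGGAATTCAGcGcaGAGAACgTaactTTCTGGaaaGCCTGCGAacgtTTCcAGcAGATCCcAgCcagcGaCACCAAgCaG
Rgs19: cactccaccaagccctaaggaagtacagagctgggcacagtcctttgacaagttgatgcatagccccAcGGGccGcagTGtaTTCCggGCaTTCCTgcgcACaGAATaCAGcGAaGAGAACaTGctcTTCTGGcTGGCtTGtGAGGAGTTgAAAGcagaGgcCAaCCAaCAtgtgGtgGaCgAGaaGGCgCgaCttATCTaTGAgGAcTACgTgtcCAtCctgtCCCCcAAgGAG
These exons lie at chr1:144002116-144002282 (minus strand) for Rgs2, chr4:62701034-62701200 (plus) for Rgs3, chr1:153741963-153742129 (plus) for Rgs16, chr7:128403170-128403256 (minus) for Rgs10, chr13:55378702-55378794 (plus) for Rgs14 and chr2:181689377-181689611 (minus) for Rgs19. In 4 of the 6 genes the whole exon lay inside a peak of that gene, and in Rgs16 129 of its 167 bases did. The Rgs19 exon lay in no peak assigned to the gene, but in a longer peak described with Rgs19. Peaks over these exons had 25.5 RPKM in spleen against 27.4 RPKM in large intestine in Rgs3, and 16.02 and 8.11 RPKM in Rgs16. GC content of the exons ran from 41.9% in Rgs2 to 55.1% in Rgs16.

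The values correspond to about 29600000 mapped reads for the spleen library, against 38100000 for the large intestine library. Each library was scaled to its total over all peaks, which differed by 1.03-fold, and ratios were taken as log2 of large intestine over spleen with 0.5 RPKM added to both. Across the series the ratio of a peak grew by 0.32 on the log2 scale for every 10 points of GC content, so GC is given beside the genes. Of the markers of T and Treg cells, 6 of 6 had peaks (1777 RPKM in spleen and 1475 in large intestine, summed). Most of this sum came from Ikzf2 alone (1205 and 851 RPKM), and 3 of the 6 were higher in each tissue. Of the B cell markers 3 of 5 did (60.2 and 53.4 RPKM), with Ms4a1 among those without a peak, and of the myeloid markers 1 of 6 (14.7 and 16.3 RPKM). Of the epithelial markers 2 of 6 had peaks, summing to 29.9 RPKM in spleen and 59.8 in large intestine, while Krt20, Cdh1, Krt8 and Muc2 had none. Of the mast and tuft cell markers only Kit had a peak (1.35 and 7.48 RPKM). The part of other cells, and of unequal depth and GC content, in the Rgs ratios was not tested, and a change of the mark per cell cannot be told apart from a change in the share of cells that carry it.

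Rgs16 and Rgs10 carried less of the mark in the large intestine library than in the spleen library and Rgs1 carried more, while none of the 7 genes differed by as much as 2-fold. The ratio was 0.57 in Rgs1, 0.23 in Rgs2 and 0.13 in Rgs14, and -0.26 in Rgs19, -0.27 in Rgs3, -0.53 in Rgs10 and -0.60 in Rgs16. Thus 3 genes had the higher value in large intestine, against 50.7% of all genes, and 4 in spleen, against 49.3%. Counts past 2-fold were 0 and 0, where 3.42% of all genes were past 2-fold in large intestine and 2.04% in spleen. Both sets of counts are close to what the shares over all genes give for 7 genes. The median ratio of the Rgs genes was -0.26, beside 0.00 over all genes, whose middle 50% ran from -0.20 to 0.24, and it ran from -0.45 with the GC trend removed to -0.02 from the strongest peak of each gene over the ways of processing tried. Rgs1 was at percentile 89.99 of all genes, Rgs10 at 7.58 and Rgs16 at 5.94. The approximate 95% counting interval, which covers counting error only and takes a read to cover 200 bp, lay above 0 in Rgs1, below 0 in Rgs3, Rgs10 and Rgs16, and included 0 in Rgs2, Rgs14 and Rgs19.

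**Figure D1:**
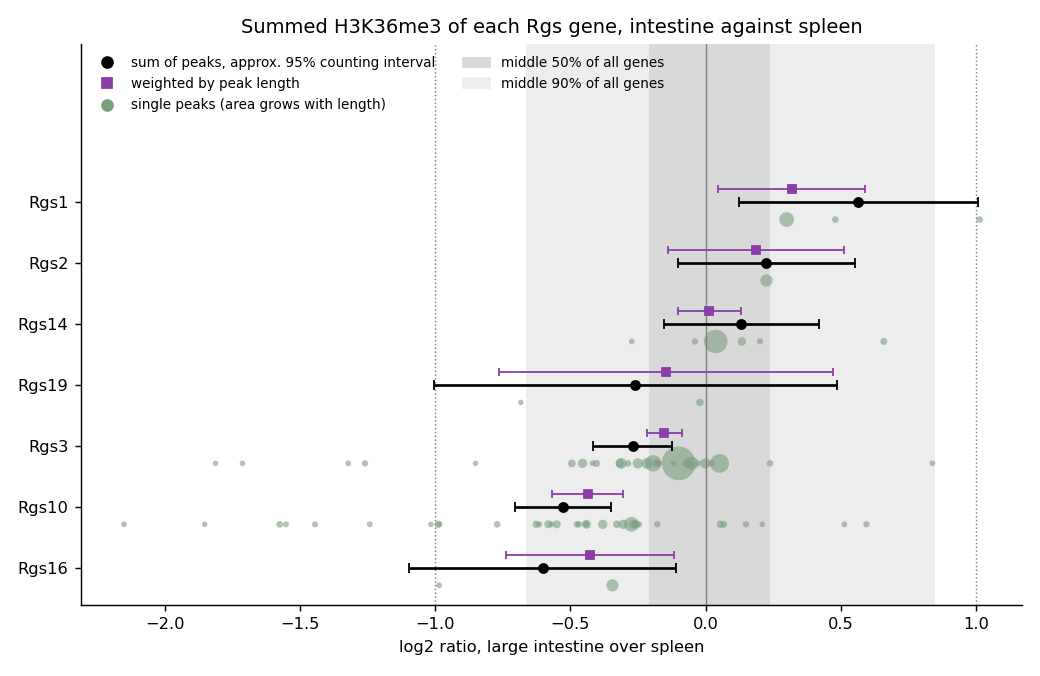
Log2 ratio of large intestine over spleen for the 7 genes, in order of the ratio. Black points are the summed peaks with the approximate 95% counting interval, purple squares the same weighted by peak length, green points single peaks with an area that grows with peak length, and grey bands the middle 50% and 90% of all 10886 genes. Rgs1 lies at 0.57 and Rgs16 at -0.60, and the most negative single peaks, in Rgs3 and Rgs10, are short.

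Rgs1, which limits chemokine receptor signalling in lymphocytes, was the gene with the highest ratio. It lies at chr1:144242296-144249242 on the minus strand (ENSMUSG00000026358.13) and had 3 peaks, covering 66.2% of its body. Summed, they had 24.1 RPKM in spleen against 37.0 RPKM in large intestine, a ratio of 0.57 with a counting interval of 0.12 to 1.01. All 3 peaks were higher in large intestine. The main one, 3684 bp at chr1:144244332-144248015, holds coding sequence, introns and part of the 3' UTR and carried 90.6% of the gene's spleen signal, counted as value times length. It had 13.1 RPKM in spleen against 16.8 RPKM in large intestine, a ratio of 0.30 (0.01 to 0.59). A 477-bp peak at chr1:144248228-144248704, 538 to 1014 bp from the gene start, had 5.74 and 12.5 RPKM and a ratio of 1.01 (-0.06 to 2.09), on about 8.11 and 22.7 reads. The third, 440 bp in the 3' UTR at chr1:144243624-144244063, had 5.17 and 7.67 RPKM. The main peak had the smallest ratio of the 3, and the length-weighted ratio of the gene was 0.32 (0.05 to 0.59). Peaks of Rgs1 had 35.9% GC, and with the GC trend removed the ratio was 0.91.

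Rgs2, which acts chiefly on the Gq class of G alpha subunits, lies on the same stretch of chromosome 1 as Rgs1, at chr1:143999338-144004161 on the minus strand (ENSMUSG00000026360.9). Its single peak, 2454 bp at chr1:144000927-144003380, ran from 781 to 3234 bp from the gene start and covered 50.9% of the body. It had 16.02 RPKM in spleen against 19.4 RPKM in large intestine, a ratio of 0.23 (-0.10 to 0.55). The interval included 0, and it ran from 0.03 to 0.42 if a read is taken to cover 75 bp. The peak had 41.6% GC.

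Rgs3, a regulator with long and short isoforms, is the longest of the genes, at chr4:62559847-62704001 on the plus strand (ENSMUSG00000059810.18). Its 27 peaks had 379.1 RPKM in spleen against 324.5 RPKM in large intestine, a ratio of -0.27 (-0.41 to -0.12), and 23 of them were higher in spleen. None lay in the first 46.4 kb of the body, and 99.2% of the spleen signal by length lay in the 3' part, past the middle of the body. The longest-coding transcript starts 59.7 kb into the gene. The strongest peak in both libraries, at chr4:62639182-62659791, was 20610 bp long and mostly intronic, with 279 bases of coding exon. It had 29.99 RPKM in spleen against 28.9 RPKM in large intestine, a ratio of -0.10 (-0.19 to -0.01). The 6181-bp peak over the 3' end, which holds the RGS domain exon shown above, had 25.5 RPKM in spleen against 27.4 RPKM in large intestine, a ratio of 0.05 (-0.12 to 0.22). The 10 peaks of 1 kb or more had ratios from -0.45 to 0.05, and all 4 peaks of Rgs3 past 2-fold were shorter. The 4 peaks before the middle had 41.0 and 20.3 RPKM in sum, a ratio of -1.04 (-1.88 to -0.19), but 0.83% of the spleen signal by length. Among peaks with at least 20 RPKM over both libraries, the lowest ratio was -1.26 (-2.37 to -0.15), in a 358-bp intronic peak with 15.7 and 6.49 RPKM. The highest was 0.24 (-0.60 to 1.07), in a 451-bp peak with 13.1 and 16.03 RPKM whose midpoint lay within 1 kb of an annotated transcript start. The length-weighted ratio of the gene was -0.15 (-0.22 to -0.09), nearer to 0 than the ratio of the sum. Peaks of Rgs3 had 52.3% GC, and with the GC trend removed the ratio of the sum was -0.45.

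Rgs16, which is induced in activated T cells and acts on the Gi and Gq classes, was the gene with the lowest ratio. It lies at chr1:153740349-153745468 on the plus strand (ENSMUSG00000026475.7). Its 2 peaks had 36.3 RPKM in spleen against 24.5 RPKM in large intestine, a ratio of -0.60 (-1.10 to -0.11), and both were higher in spleen. The 2372-bp peak at chr1:153742776-153745147 covers the last coding exon and most of the 3' UTR and held 91.1% of the spleen signal by length. It had 20.3 and 16.4 RPKM, a ratio of -0.34 (-0.67 to -0.02). The 292-bp peak at chr1:153742001-153742292, over 129 bases of the RGS domain exon, had 16.02 and 8.11 RPKM, a ratio of -0.99 (-2.14 to 0.17) on about 13.9 and 9.02 reads. The size of the gene's ratio thus rested on a peak of few reads, and the length-weighted ratio was -0.43 (-0.74 to -0.12). The longer peak also has its midpoint in Gm28513, annotated on the opposite strand, and ChIP-seq does not tell strands apart. Without that peak the ratio is the one of the short peak. Peaks of Rgs16 had 53.5% GC, and the ratio with the GC trend removed was -0.81.

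Rgs10, a small protein made of little more than the RGS domain and active on Gi subunits, was higher in spleen on both sides of the middle of the gene. It lies at chr7:128373621-128418758 on the minus strand (ENSMUSG00000030844.11). Its 33 peaks had 402.0 RPKM in spleen against 287.7 RPKM in large intestine, a ratio of -0.53 (-0.71 to -0.35). Of them 27 were higher in spleen, and in 7 the counting interval of the single peak lay below 0 and in 0 above it. All 5 assigned peaks of 1 kb or more were higher in spleen, with ratios from -0.44 to -0.27. The longest, 3686 bp at chr7:128399839-128403524, holds the RGS domain exon shown above and had 19.1 RPKM in spleen against 16.2 RPKM in large intestine, a ratio of -0.27 (-0.54 to -0.01). The ratio was -0.56 (-0.81 to -0.30) 5' of the middle and -0.50 (-0.74 to -0.25) 3' of it. The strongest assigned peak in spleen, 1265 bp at chr7:128388127-128389391 with 144 bases of coding exon, had 20.7 and 17.2 RPKM. The strongest in large intestine, 910 bp at chr7:128376622-128377531, had 20.2 and 17.4 RPKM, so it too was higher in spleen. A 1491-bp peak over the 3' end, at chr7:128372555-128374045, has 425 bp in the gene and its midpoint outside, and was not counted. It had 23.6 RPKM in spleen against 12.5 RPKM in large intestine, a ratio of -0.94. With overlapping peaks counted, the ratio of the gene was -0.55. Among peaks with at least 20 RPKM over both libraries the ratio ran from -0.98 in a 287-bp peak (13.5 and 6.82 RPKM) to 0.51 in a 267-bp peak (11.1 and 16.6 RPKM), both intronic and with intervals that included 0. The length-weighted ratio of the gene was -0.44 (-0.57 to -0.30), its peaks had 49.5% GC, and with the GC trend removed the ratio was -0.62. Of the peaks, 2 also have their midpoint in Gm15503, which is annotated within Rgs10 on the same strand.

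Rgs14, which joins an RGS domain to Ras-binding domains and a GoLoco motif for Gi subunits, had the ratio nearest to 0. It lies at chr13:55369732-55384687 on the plus strand (ENSMUSG00000052087.14). Its 6 peaks had 75.3 RPKM in spleen against 85.3 RPKM in large intestine, a ratio of 0.13 (-0.15 to 0.42). A peak of 9898 bp, at chr13:55377156-55387053, held 93.1% of the spleen signal by length and ran 2366 bp past the annotated end. It had 31.4 RPKM in spleen against 33.3 RPKM in large intestine, a ratio of 0.04 (-0.08 to 0.16), and the length-weighted ratio of the gene was 0.01 (-0.10 to 0.13). With 920 and 1255 reads by the same estimate, this peak is among the best covered of the Rgs peaks. The largest ratio was 0.66 (-0.19 to 1.505), in a 537-bp intronic peak with 9.43 and 15.7 RPKM. Peaks of Rgs14 had 52.3% GC, and with the GC trend removed the ratio was -0.00, on the other side of 0.

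Rgs19, a Gi regulator also known as GAIP, had the fewest reads in its assigned peaks. It lies at chr2:181688419-181693977 on the minus strand (ENSMUSG00000002458.13). Its 2 peaks had 23.5 RPKM in spleen against 20.2 RPKM in large intestine, a ratio of -0.26 (-1.01 to 0.49), on about 35.3 and 43.4 reads. The 713-bp peak had 14.1 and 14.3 RPKM, a ratio of -0.02, and the 200-bp peak 9.47 and 5.91 RPKM, a ratio of -0.68 (-2.36 to 0.99). A peak of 5410 bp at chr2:181685582-181690991 covers 2573 bp of the 3' part of Rgs19 with its RGS domain exon. Its midpoint lies outside the gene, and it was not counted. The peak also runs past the 0.347 kb gap into Tcea2, annotated on the opposite strand, so its signal cannot be assigned to Rgs19 alone. It had 19.4 RPKM in spleen against 19.9 RPKM in large intestine, a ratio of -0.01 (-0.22 to 0.20). The intervals of the assigned peaks and of this peak both included 0. Peaks of Rgs19 had 55.5% GC, and with the GC trend removed the ratio was -0.48.

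**Figure D2:**
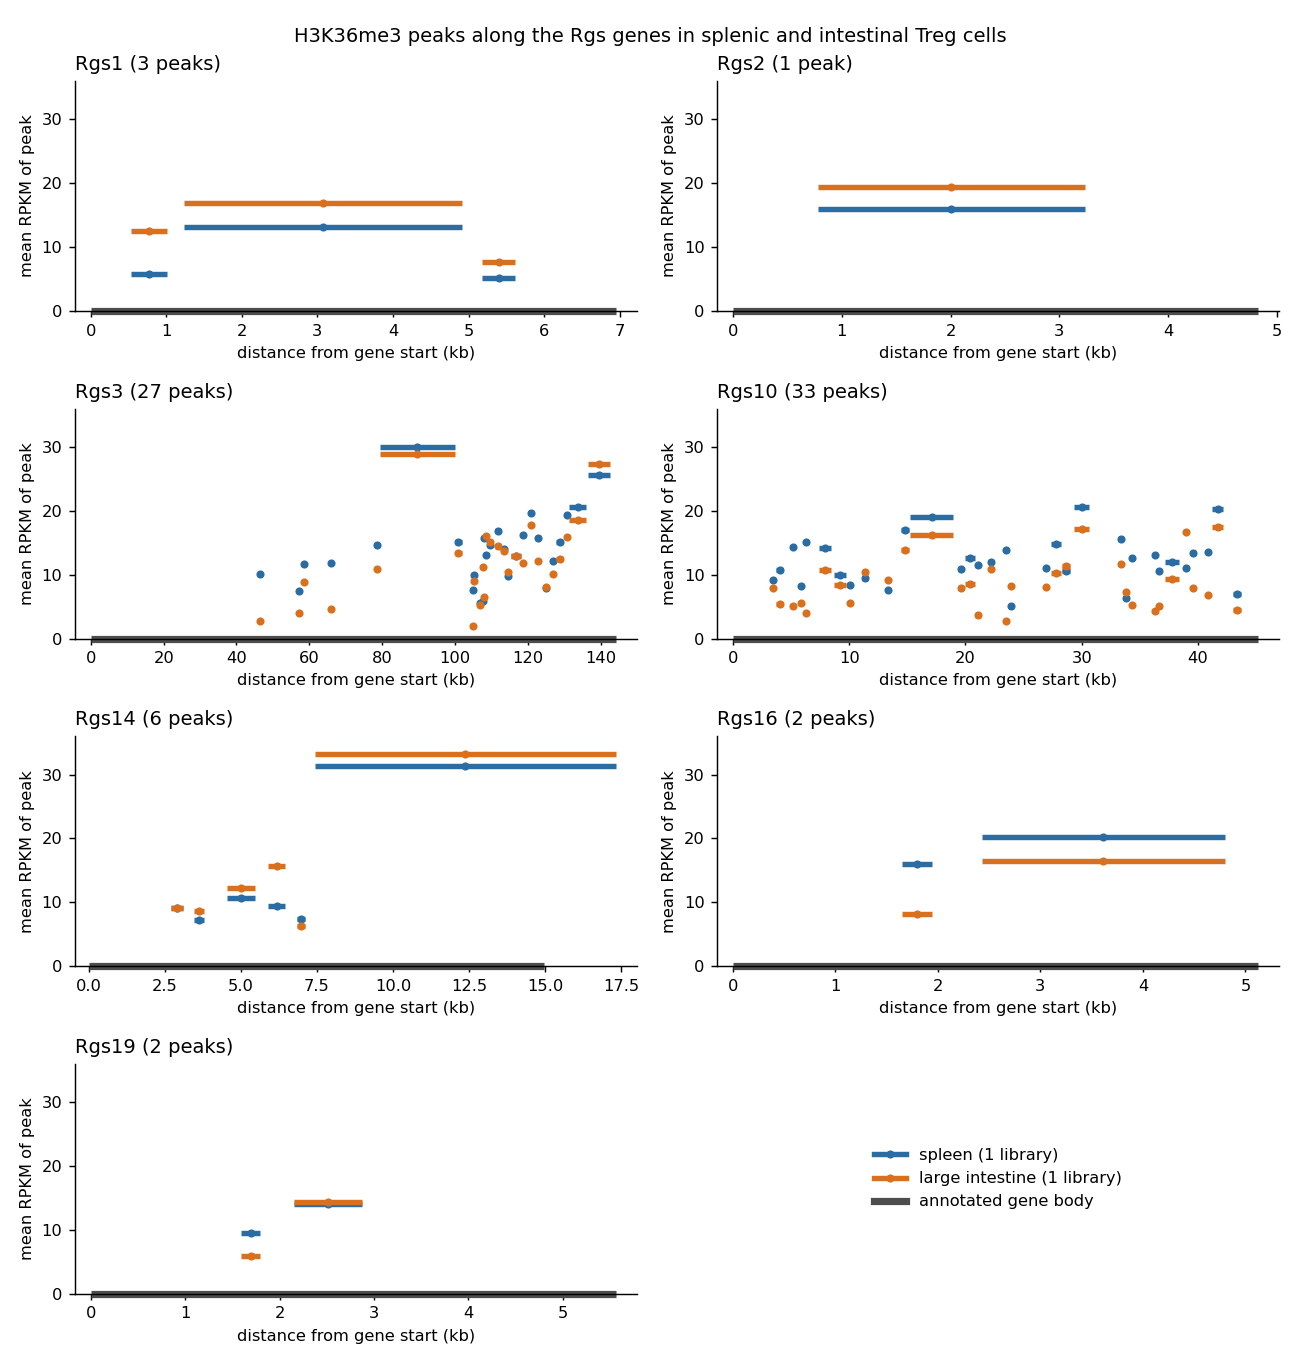
Mean RPKM of every peak (vertical axis) against its distance from the gene start in kb (horizontal axis), with 1 panel per gene, the spleen library in blue, the large intestine library in orange, horizontal bars as long as the peak and the gene body in grey. The orange values lie above the blue ones in all 3 peaks of Rgs1 and below them in 27 of 33 peaks of Rgs10, and the peaks of Rgs3 start 46.4 kb into the gene.

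Set out by length, most peaks of both classes were higher in spleen, and most of those lay in Rgs3 and Rgs10. Of the 74 peaks, 55 were under 1 kb, and 41 of these (74.5%) were higher in spleen, against 51.8% of all short peaks. Past 2-fold in spleen were 11 of them (20%), against 12.3% of all short peaks, and all 11 lay in Rgs3 and Rgs10. Of the 19 peaks of 1 kb or more, 15 (78.9%) were higher in spleen, against 48.9% of all such peaks, and 0 were past 2-fold. Rgs3 and Rgs10 had 14 of their 15 long peaks and 36 of their 45 short ones higher in spleen, and the other 5 genes 1 of 4 and 5 of 10. Peaks of 1 gene share a gene and a library and are not independent. By their midpoint, 13 of the 74 peaks lay within 1 kb of an annotated transcript start, and of the rest 57 lay in introns, 2 in a 3' UTR and 2 in coding exons.

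**Figure D3:**
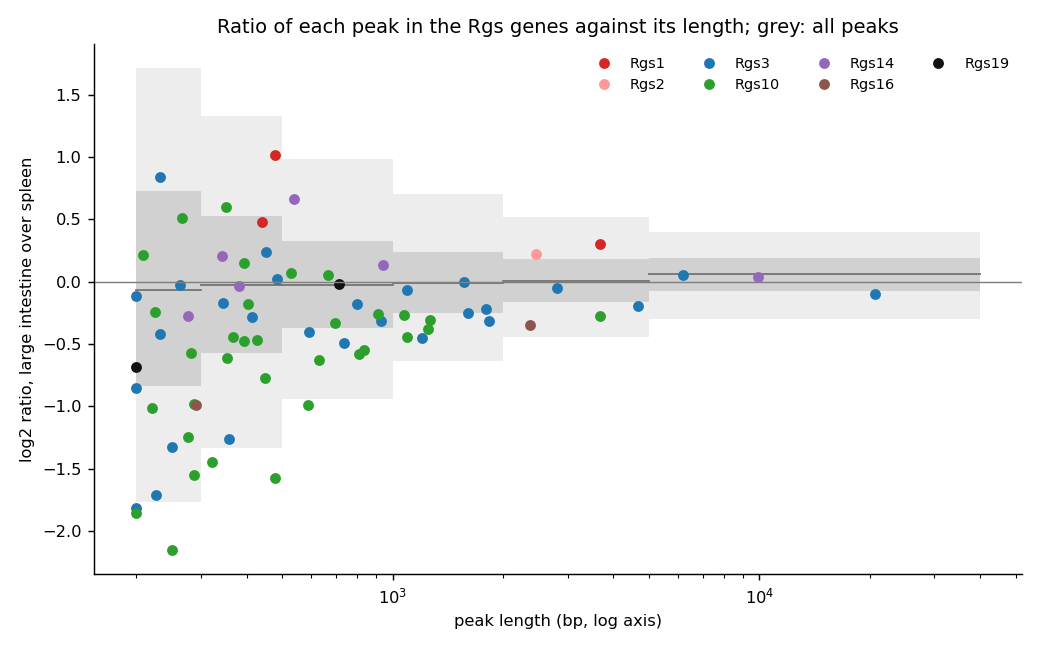
Log2 ratio of each of the 74 peaks (points, coloured by gene) against peak length in bp on a log axis, over the middle 50% and 90% of all peaks of similar length (grey steps, with the median as a line). The spread of all peaks narrows with length. All 10 Rgs peaks between 1 and 2 kb are in Rgs3 and Rgs10 and lie below 0, the highest at -0.00. The median over all peaks of that length is -0.01.

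Per kilobase of gene body, a scale on which the genes can be compared, the level was highest in Rgs14, while the place of Rgs19 depended on how peaks were assigned. The sum of peak value times peak length, divided by the body length and including what runs past the gene end, was 22.3 RPKM in spleen against 23.9 RPKM in large intestine for Rgs14, and 2.14 and 2.05 RPKM for Rgs19. In between lay Rgs16 with 10.3 and 8.06 RPKM, Rgs2 with 8.15 and 9.88 RPKM, Rgs3 with 7.92 and 7.54 RPKM, Rgs1 with 7.69 and 10.3 RPKM, and Rgs10 with 6.32 and 4.90 RPKM. Counting instead the bases of every overlapping peak that lie inside the body, Rgs14 had 17.4 and 18.6 RPKM and Rgs19 came next with 11.1 and 11.2 RPKM, because the 5410-bp peak was then included. That peak also reaches into Tcea2, so the place of Rgs19 on this count may not rest on its own signal. Rgs3 and Rgs10 had 8.11 and 6.54 RPKM in spleen and 7.72 and 5.01 RPKM in large intestine on this count, and the other 3 genes were as before. Rgs1 stood below Rgs16 in spleen and above it in large intestine on this level. The ratios of the summed peaks of these 2 genes, which are not weighted by length, differed by 1.17 on the log2 scale (0.51 to 1.83). Weighted by length, as this level is, the ratios were 0.32 in Rgs1 and -0.43 in Rgs16.

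In the order of the ratios, most neighbours could not be told apart. From Rgs1 down through Rgs2, Rgs14, Rgs19 and Rgs3, no gene differed from the next beyond counting error. Rgs3 was above Rgs10 by 0.26 (0.03 to 0.49), and Rgs10 was above Rgs16 by 0.08 (-0.45 to 0.60). Over all 21 pairs the interval of the difference lay above 0 in 10. Rgs1, Rgs2 and Rgs14 each stood above Rgs3, Rgs10 and Rgs16, which makes 9 of the 10, and no pair with Rgs19 was among them.

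Of the nearest protein-coding genes, most had no peak or a ratio whose interval included 0. Rgs13 lies between Rgs2 and Rgs1 and had no peak, and neither had Rgs21 on the other side of Rgs1 or Rgs8 next to Rgs16, all of the same family. Next to Rgs10, Tial1 had 90.2 RPKM in spleen against 81.6 RPKM in large intestine, a ratio of -0.19 (-0.48 to 0.11). On its other side BC017158 had 162.7 and 204.3 RPKM, a ratio of 0.28 (0.09 to 0.47), opposite in sign to Rgs10. Beside Rgs14, Lman2 had a ratio of 0.10 (-0.05 to 0.25), and beyond Rgs2, Uchl5 had one of -0.42 (-1.10 to 0.26). Zfp618, 4933430I17Rik, Slc34a1, Lkaaear1 and the Gm11209 gene inside Rgs3 had no peak, and Tcea2 beside Rgs19 was under the signal minimum with 7.47 and 11.1 RPKM. The 5410-bp peak that reaches into both Tcea2 and Rgs19 had its midpoint outside both genes and was counted for neither.

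In the study's lists of genes that differ in expression between colonic and splenic Treg cells of other samples, Rgs2 and Rgs16 are on the colonic list and Rgs14 and Rgs19 on the splenic list. Of the pair on the colonic list, Rgs2 had 16.02 and 19.4 RPKM and Rgs16 36.3 and 24.5 RPKM in spleen and large intestine. Of the pair on the splenic list, Rgs14 had 75.3 and 85.3 RPKM and Rgs19 23.5 and 20.2 RPKM. In each pair 1 gene was thus higher in each tissue.

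Among the 14 other genes named Rgs, 12 had no peak, and both of those with peaks differed by more than 2-fold. Rgs9, which works in a complex with the G beta subunit Gnb5, had 14 peaks with 54.4 RPKM in spleen against 174.3 RPKM in large intestine, a ratio of 1.63 (1.21 to 2.04). Gnb5 itself had 3 peaks with 11.5 and 37.0 RPKM, a ratio of 1.59 (0.58 to 2.61). Rgs12, a relative of Rgs14 in R12, had 3 peaks with 32.5 and 14.3 RPKM, a ratio of -1.20 (-2.09 to -0.32). Per kilobase of body the levels were 0.33 RPKM in spleen against 1.18 RPKM in large intestine for Rgs9 and 0.10 and 0.05 RPKM for Rgs12. The shares past 2-fold over all genes are those given above.

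The genes of proteins that work with RGS proteins were taken by list, with no test between lists. Of 15 other genes with an RGS domain, such as the G-protein-coupled receptor kinases, 11 reached the signal minimum, with 4 higher in large intestine, 7 higher in spleen, 0 past 2-fold and a median of -0.14. Of 13 genes for G alpha subunits, the direct targets of RGS proteins, 9 reached it, with 6 higher in large intestine, 3 in spleen, 0 past 2-fold and a median of 0.26. Of 15 genes for G beta and gamma subunits 7 reached it, with a median of 0.15 and Gnb5 alone past 2-fold. Of 13 genes for adenylyl cyclases and phospholipase C beta 7 reached it, with a median of 0.25 and Adcy6 alone past 2-fold, at 105.0 RPKM in spleen against 37.9 RPKM in large intestine (-1.51, -2.02 to -0.99). Under the other ways of processing, the medians ran from -0.15 to 0.24 for the RGS domain genes, from 0.08 to 0.31 for G alpha, from -0.07 to 0.44 for G beta and gamma and from -0.04 to 0.30 for the cyclases and phospholipases, so that only the G alpha median of these kept its sign.

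The ratios of the receptor genes ran over a wider range than those of the 7 Rgs genes, a list of fewer genes. Of 22 receptor genes 17 reached the signal minimum, with 11 higher in large intestine, 6 in spleen and a median of 0.39, which ran from 0.08 to 0.56 under the other ways of processing. Past 2-fold in large intestine was the inflammatory chemokine receptor Ccr2, with 11.0 and 52.1 RPKM (2.15, 1.47 to 2.82). Past 2-fold in spleen were Ccr7, which guides T cells into lymph nodes, with 61.5 and 24.8 RPKM (-1.34, -1.64 to -1.05), and S1pr1, which lets them leave, with 31.96 and 9.36 RPKM (-1.76, -2.21 to -1.32). The ratios of the receptors ran from -1.76 to 2.15 and those of the 7 Rgs genes from -0.60 to 0.57.

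**Figure D4:**
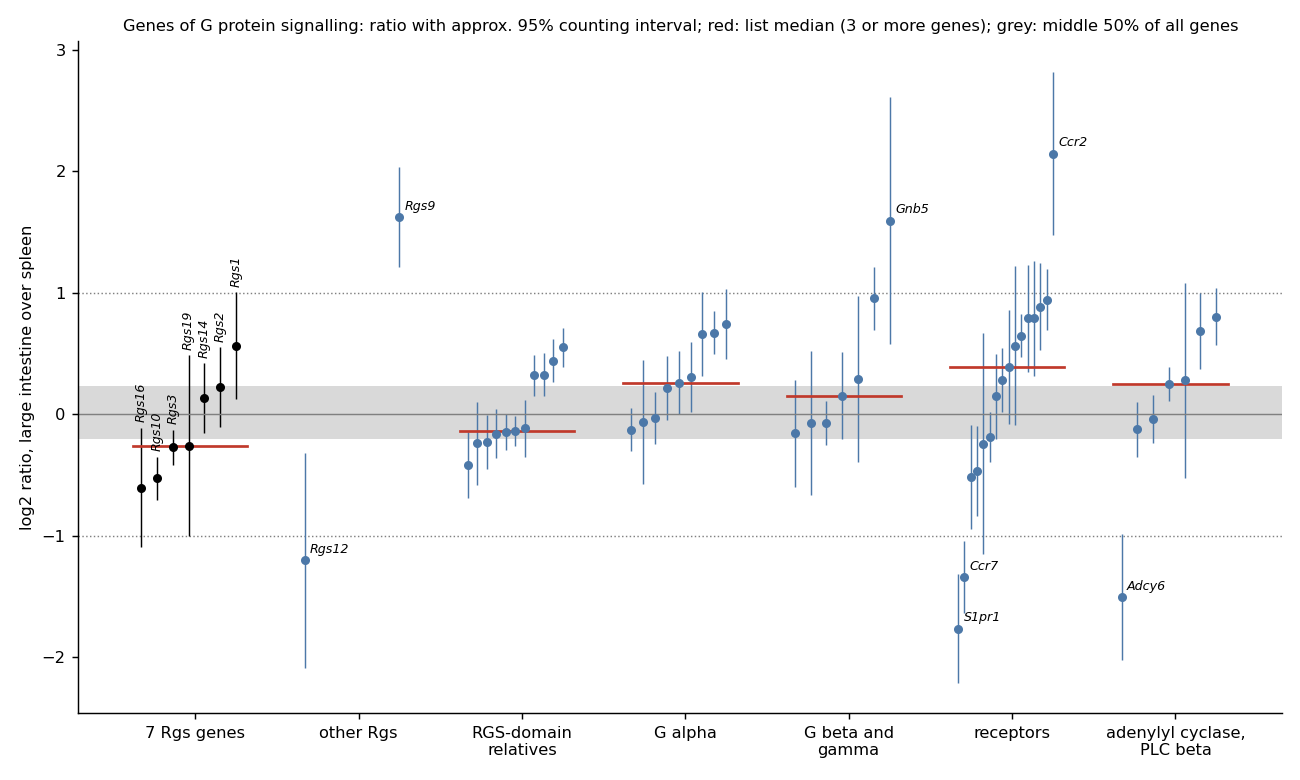
Log2 ratio of large intestine over spleen with the approximate 95% counting interval for genes that reached the signal minimum, by list (1 receptor gene is not shown), with the list median in red where a list has 3 or more genes and the middle 50% of all genes in grey. The 7 Rgs genes lie between -0.60 and 0.57, while Rgs9, Gnb5 and Ccr2 lie above the dotted line of 2-fold and Rgs12, Ccr7, S1pr1 and Adcy6 below it.

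Other ways of processing the table moved sizes more than directions. Over every processing that gave a value, Rgs1 ran from 0.30 to 0.91, Rgs2 from 0.17 to 0.41, Rgs16 from -0.99 to -0.34, Rgs10 from -0.62 to -0.30, Rgs3 from -0.45 to -0.10 and Rgs19 from -0.48 to -0.02. Rgs14 alone changed sign, between -0.13 and 0.20.

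**Figure D5:**
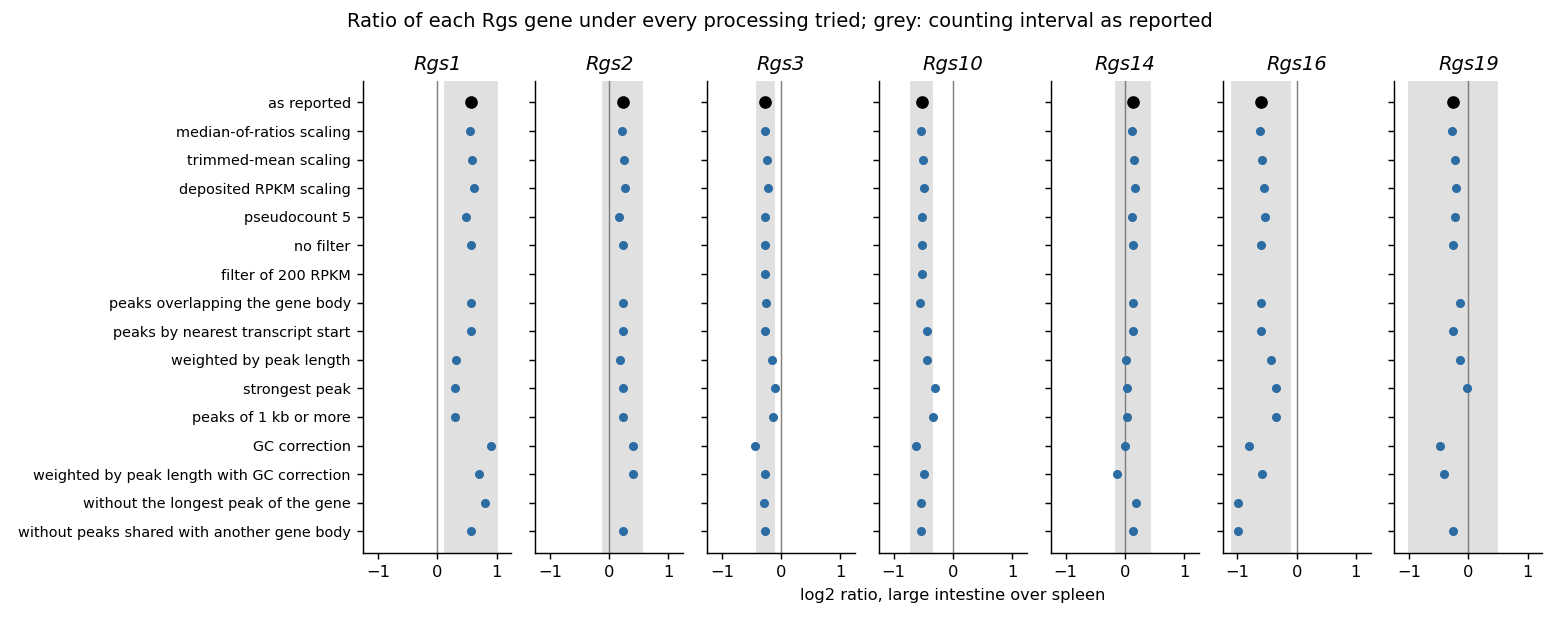
Log2 ratio of each gene (1 panel per gene) under each way of processing (rows), with the reported value in black and its approximate 95% counting interval in grey. An empty row is a processing that gave no value for the gene, and Rgs14 is the gene whose points lie on both sides of 0.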

How the data were processed

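The authors mapped reads to mm10 with Bowtie2, called peaks per tissue with MACS2 against the input, merged them with bedtools and averaged RPKM coverage over each merged peak, so the deposited values are mean RPKM. Raw counts is the label of the table, yet the values are not whole, and no count test was run.

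Peaks were assigned by midpoint to GENCODE M21 bodies, counting in each of overlapping genes. Values were summed per gene, scaled to library totals, filtered at 20 RPKM over both libraries and turned into log2 ratios with a pseudocount of 0.5 RPKM, which understates changes of low genes. Counting intervals (95%) take reads as independent and covering 200 bp. Exon classes follow the transcript with the longest coding sequence.

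The Rgs genes and other lists were chosen with earlier results of these data known. Also named were nearest protein-coding and overlapping genes, genes of the other lists past 2-fold and other Rgs genes with a peak. Of each member's peaks, the strongest and those of highest and lowest ratio (at least 20 RPKM) were named, and others after their values were seen. Computations (Python 3.11.15, numpy 2.4.6, pandas 2.3.3) were tested on simulated data. The closing section gives the alternatives tried. Some genes of the lists and 1 exon are not reported here.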

Additional observations from a re-analysis of the deposited data

How the results depend on the processing

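Of 97 recomputed ratios of the 7 Rgs genes, 93 moved by less than the counting interval, 4 moved by more and 0 reversed. Those 4 were Rgs3 at -0.10 and Rgs10 at -0.30 from the strongest peak alone, Rgs10 at -0.34 from peaks of 1 kb or more, and Rgs3 at -0.45 with the GC trend removed. Part of the 97 could not move, because a change of filter leaves a gene's own ratio as it was. Other ways of choosing peaks also left some genes with the same peaks. The share of unmoved ratios is therefore no measure of stability. Rgs14, whose interval includes 0, came to -0.00 with the GC trend removed and to -0.13 when also weighted by length. A filter of 200 RPKM left 2 of the genes, with 0 higher in large intestine, 2 in spleen. Over all genes, 372 were past 2-fold in large intestine and 222 in spleen. These counts became 623 and 459 with no filter, 70 and 39 with the filter of 200 RPKM, and 120 and 40 from peaks of 1 kb or more. A pseudocount of 5 left 145 in spleen, and weighting by length with the GC trend removed left 234 in large intestine. The length weighting with GC removed, leaving out the longest peak or shared peaks, intervals for reads covering 75 bp and levels from the bases inside the body were chosen after seeing the data. No paired analysis was possible because each tissue had 1 library and the labels carry no replicate numbers. Leaving out a library was not possible for the same reason. Counting error alone makes a 2-fold difference in a 200-bp peak, such as the one in Rgs19, not detectable.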
